A study of Bos taurus with 8 samples.

Results

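The set described here holds the transcripts that the scanner software found well above background in Holstein-Friesian (HF) muscle cells but in few beef channels. The members were chosen by these detection flags, each transcript at the probe that measures it: a probe entered when its HF channel was flagged on at least 7 of 8 arrays and its beef channel on at most 3 of 8. The stricter form, with the beef channel on at most 1 of 8, held 8 probes, fewer than the 30 set as a minimum, so the wider form was used. It held 34 of the 21475 probes of the array, or 0.158%. The reverse pattern, beef on at least 7 of 8 arrays and HF on at most 3, held 118 probes (0.549%).

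Primary cultures from the semitendinosus muscle of Limousin (LIM) and Hereford (HER) beef bulls were compared with cultures of HF dairy bulls. Per the study's methods there were 4 bulls of each breed, aged 15 months, and the cells were frozen while proliferating at 80% confluence in medium with fetal serum and no added treatment. Each of 4 arrays held HER cells in the green dye (Cy3) against HF cells in the red dye (Cy5), and each of 4 arrays on another slide held LIM cells in red against HF cells in green, so that breed, dye and slide cannot be told apart between LIM and HER. The cultures were enriched for myogenic cells by repeated preplating, after which myoblasts are a majority of the cells and not all of them. In RNA from whole cultures, fewer cells of a type and less RNA per cell cannot be told apart.

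Satellite cells are the resident stem cells of muscle, and in culture they divide as myoblasts before they fuse. Between and beside them lie matrix-producing, vascular and immune cells, whose transcripts can appear in a primary culture too. On an array, a probe near the level of its surroundings gives little more than a yes or no, and the offset added in background correction pulls the ratios of dim probes toward 0. The 34 probes were dim: their mean HF level stood between the 25.5 and 42.0 percentile of all probes, with a median of 29.0.

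The data went against part of the description "not in beef cells". Of the 34 probes, 31 were well above background on 0 of 4 HER arrays, but only 4 were so on 0 of 4 LIM arrays. Summed over probes and arrays, the HER channel was flagged in 3 of 136 cases, all on HER replicate 1, and the LIM channel in 68 of 136. Per LIM array the number of flagged members was 7, 28, 15 and 18 for replicates 1 to 4, against 31 to 34 in the HF channels of all 8 arrays. By the flags, the set is therefore a group of transcripts detected in HF and hardly in HER, with all but 4 of them flagged on some LIM array.

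The LIM channel was also flagged more often over the whole array: 80.9% to 85.2% of all probes, against 68.8% to 75% in the HER channel and 73.9% to 78% in the HF channels. Of the 15458 probes detected in HF on at least 7 arrays, 146 were flagged on 0 of 4 HER arrays, and 115 of these were flagged on 4 of 4 LIM arrays. Only 4 of the 15458 were flagged on 0 of 4 LIM arrays, and 0 combined that with 4 of 4 HER arrays. The normalised levels of the members ran the other way: their median level per array was 5.99 to 6.08 (log2 intensity) in LIM, 6.14 to 6.20 in HER and 6.31 to 6.49 in HF. The part of dye and slide in this disagreement between flag and level was not tested.

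**Figure D1:**
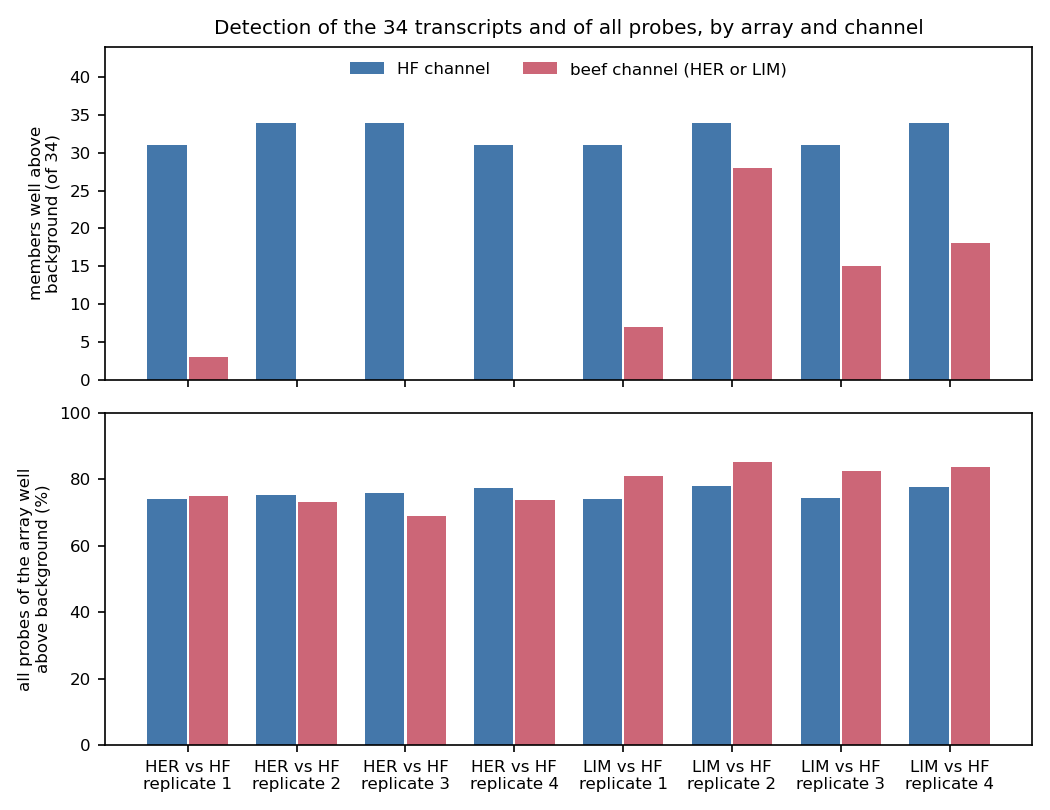
Number of the 34 transcripts well above background (upper panel) and percent of all probes of the array well above background (lower panel) in the HF and the beef channel of each array; bars start at 0. The HF channels hold 31 to 34 of the 34, HER channels 0 to 3 and LIM channels 7 to 28, while over all probes the LIM channels are the ones with the most detections.

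The flags themselves were less firm in the set than elsewhere. Almost every probe has a pair of spots on the array, and all spots of a probe were flagged in 202 of the 260 detections in HF channels (77.7%), against 95.2% over all probes. In beef channels all spots were flagged in 50 of the 71 detections. When a probe had to be flagged on all its spots, 44 probes met the rule and 15 of the 34 were among them. With the software's other flag, positive and significant against background, 18 probes met the rule and shared 1 probe with the 34.

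The rule used the contrast of HF with beef, so the ratios are given as a description without a test. All 34 means were below 0 in both beef breeds. The mean log2 ratio of LIM over HF lay between -0.84 and -0.02 over the 34 probes, with a median of -0.35. For HER over HF it lay between -1.09 and -0.10, with a median of -0.27. Over all 17631 probes tested the median was 0.02 in LIM and 0.00 in HER, and from the 10th to the 90th percentile of probes the mean ratio over the 8 arrays ran from -0.45 to 0.55.

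By array the median member ratio was -0.26, -0.32, -0.28 and -0.20 in HER replicates 1 to 4, and -0.40, -0.30, -0.35 and -0.20 in LIM replicates 1 to 4. Replicate 4 gave the ratio nearest to 0 on both slides. The ratio was below 0 on 8 of 8 arrays for 24 members, on 7 for 8 members and on fewer for 2, where 14.5% of all tested probes were below 0 on 8 of 8. The 8 HF levels all lay above the 8 beef levels for 9 members, against 4.51% of all tested probes. Since the rule used this contrast, nothing is read from either count.

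**Figure D2:**
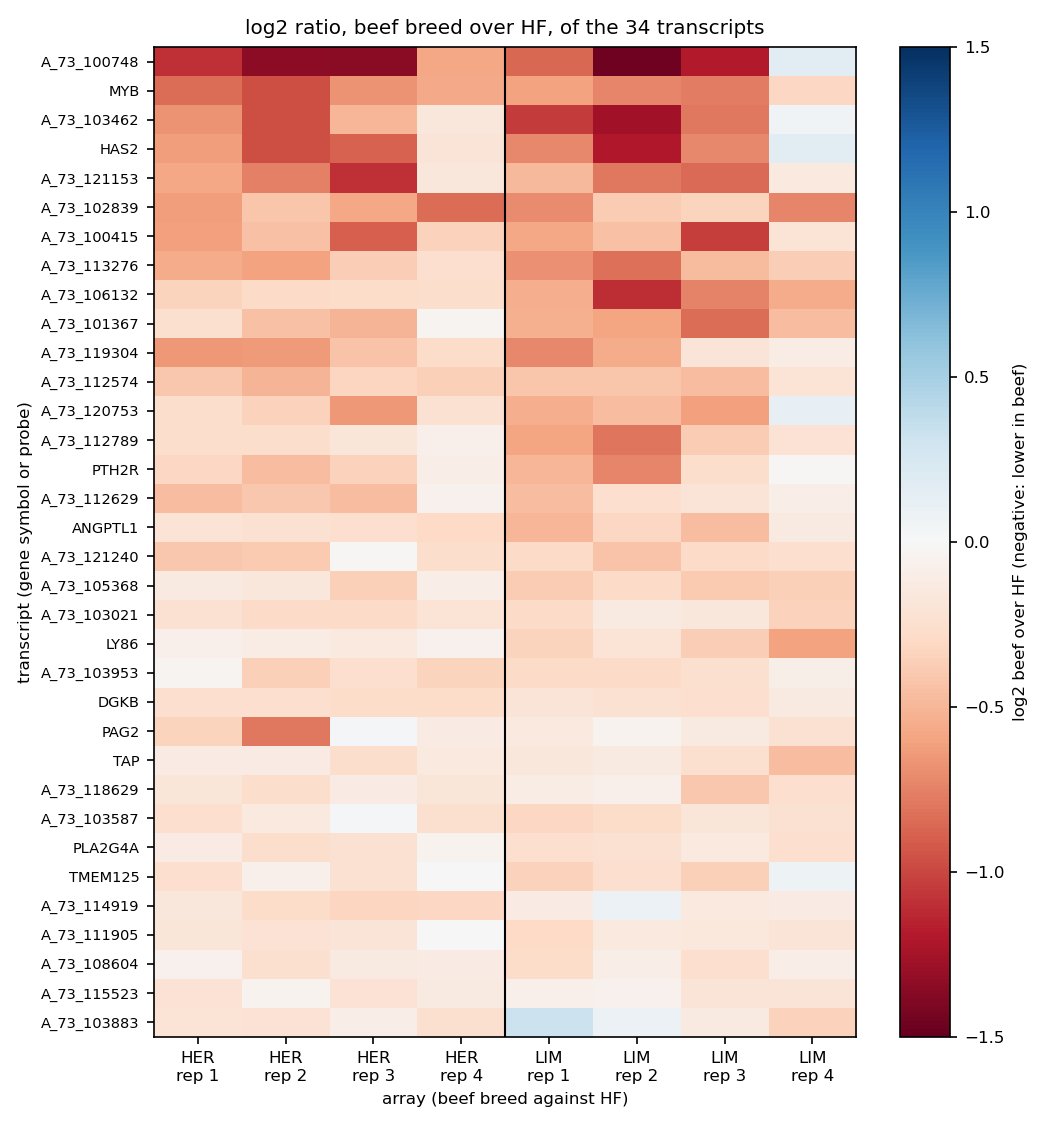
log2 ratio of the beef breed over HF for each of the 34 transcripts (rows, gene symbol or probe name, ordered by mean ratio) on each array (columns); red is lower in the beef breed, blue higher, and white is 0. Most cells are pale red, and the deepest reds lie in the upper rows. The few blue cells fall most often in LIM replicate 4, but also on other arrays, and the bluest is A_73_103883 in LIM replicate 1 (0.33).

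Members at the edge of the rule are set beside probes just outside it, as a description only, since the rule used these flags. The 15 members with 3 flagged beef channels had median ratios of -0.25 in LIM and -0.27 in HER, and the 135 probes just outside, with 4 flagged beef channels, had -0.11 and -0.12. The 12 members with 7 flagged HF channels had -0.29 and -0.25, and the 14 probes just outside, with 6, had -0.19 and -0.28.

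Probes without a gene symbol made up a large part of the set. Only 10 members (29.4%) carried a RefSeq mRNA accession, against 39.6% of all probes and 43.4% of the probes detected in HF on at least 7 arrays. A probe name with no further identifier was all that 12 members had (35.3%, against 15% and 10.8%). The remaining 12 comprised 7 TIGR consensus sequences, 4 Ensembl transcripts and 1 cDNA. Symbols were looked up by RefSeq accession only, so these 12 may belong to genes that are not named here. All 10 with a RefSeq accession could be named, and they are described below by role, each at 1 probe. The comparison of identifier classes is a description of dim probes and was not tested.

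Among genes of the extracellular space, *has2* codes for a hyaluronan synthase, the membrane enzyme that makes the long polysaccharide around dividing and migrating cells. Its HF level (log2 intensity) was 6.73, 7.26, 7.12 and 6.33 on the HER arrays and 6.68, 7.34, 6.87 and 6.51 on the LIM arrays. HER cells stood at 6.10, 6.29, 6.23 and 6.15, and LIM cells at 5.96, 6.15, 6.15 and 6.68. HF was higher on 7 of 8 arrays, and LIM replicate 4 was the exception, with LIM above HF. HF replicate 4 was the lowest of the HF channels on both slides, as it was for 13 of the 34 members and 19.4% of all tested probes. The mean log2 ratio of *has2* was -0.67 ± 0.35 in HER and -0.62 ± 0.57 in LIM (SD, n = 4 arrays each). By the mean ratio HF was 1.59-fold higher than HER, which is the measured value and not one set as a minimum. No HER array was well above background for *has2*, and in LIM it was flagged on 3 of 4 arrays. The 1.59-fold and the folds given below hold for the background step used here, in which outlying local backgrounds were replaced. With local backgrounds as measured, the HER ratio of *has2* was -0.20, without background correction -0.97 and by the scanner's ratios -2.77. For the median member in HER, too, these last settings lay further from 0, at -0.39 and -1.61, so the folds are not upper values.

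The secreted protein *angptl1* belongs to the angiopoietin-like family, proteins related in structure to the angiopoietins that act on vessels. It was the only named member flagged on 0 of 8 beef arrays, with HF flagged on 7. The log2 ratio was -0.21, -0.23, -0.25 and -0.29 in HER replicates 1 to 4 and -0.50, -0.31, -0.46 and -0.13 in LIM replicates 1 to 4, below 0 on every array. HF was 1.19-fold higher than HER and 1.27-fold higher than LIM, and with local backgrounds as measured the HER ratio was -0.12. In these folds a beef channel stands at the higher of its own signal and the lowest signal among probes well above background. As rounded, every fold given for a member equals the measured mean ratio, so this floor set none of them. It does not show how far the offset in background correction pulled them toward 0.

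The transcription factor *myb*, a regulator of proliferation in blood progenitors and other dividing cells, had the lowest mean ratio of the named members in HER. HF cells stood at 7.04, 7.28, 7.05 and 6.87 on the HER arrays and 6.66, 6.74, 6.61 and 6.56 on the LIM arrays. HER cells stood at 6.20, 6.31, 6.38 and 6.30, and LIM cells at 6.06, 6.002, 5.85 and 6.25. All 8 HF levels were above all 8 beef levels. The mean log2 ratio was -0.76 ± 0.18 in HER and -0.61 ± 0.21 in LIM (SD, n = 4 each). By this mean HF was 1.70-fold higher than HER. With local backgrounds as measured the HER ratio was -0.34. It was flagged on 3 LIM arrays and on no HER array.

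Of the receptors and their partners, *pth2r* codes for a receptor of the parathyroid hormone family and *ly86* for a secreted partner of the toll-like receptor homologue CD180 on immune cells. The ratio of *pth2r* was -0.31, -0.46, -0.35 and -0.10 in HER replicates 1 to 4 and -0.50, -0.73, -0.26 and -0.02 in LIM. It was below 0 on 8 arrays, with replicate 4 again nearest to 0 on both slides. The ratio of *ly86* was -0.08, -0.11, -0.14 and -0.06 in HER and -0.34, -0.20, -0.37 and -0.60 in LIM. Every LIM value of *ly86* was lower than every HER value, and the order of replicates was not that of *has2*: LIM replicate 4 was the lowest.

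Enzymes of lipid signalling were *dgkb*, a diacylglycerol kinase that turns diacylglycerol into phosphatidic acid, and *pla2g4a*, the cytosolic phospholipase A that frees arachidonic acid. The mean ratio of *dgkb* was -0.27 ± 0.015 in HER and -0.20 ± 0.05 in LIM, and of *pla2g4a* -0.17 ± 0.10 and -0.22 ± 0.05 (SD, n = 4 each). Both were below 0 on 8 of 8 arrays, by amounts well under the fold threshold of 1.3 used for calls. Each gene had another probe outside the set. That of *dgkb* was flagged in 0 channels of either kind, and that of *pla2g4a* on 4 HF and 1 beef array, with mean ratios of -0.26 in LIM and -0.01 in HER. Detection of *dgkb* in HF therefore rested on 1 of its 2 probes.

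The last 3 named members belong to families seen mainly outside muscle. The symbol *tap* stands here for tracheal antimicrobial peptide, a beta-defensin of epithelia, *pag2* for a pregnancy-associated glycoprotein of the placenta, and *tmem125* for a transmembrane protein. The mean ratios in HER and LIM were -0.17 ± 0.07 and -0.25 ± 0.14 for *tap*, -0.14 ± 0.12 and -0.22 ± 0.21 for *tmem125*, and -0.31 ± 0.36 and -0.14 ± 0.07 for *pag2* (SD, n = 4 each). For *tap* the 8 HF levels, 6.27 to 6.43, lay just above the 8 beef levels, 5.97 to 6.27. For *pag2* the HER value rested mainly on replicate 2, at -0.79, where the other 3 were -0.34, 0.02 and -0.12. Beta-defensins and pregnancy-associated glycoproteins are multigene families with closely similar members, so the gene behind these 2 probes is uncertain.

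**Figure D3:**
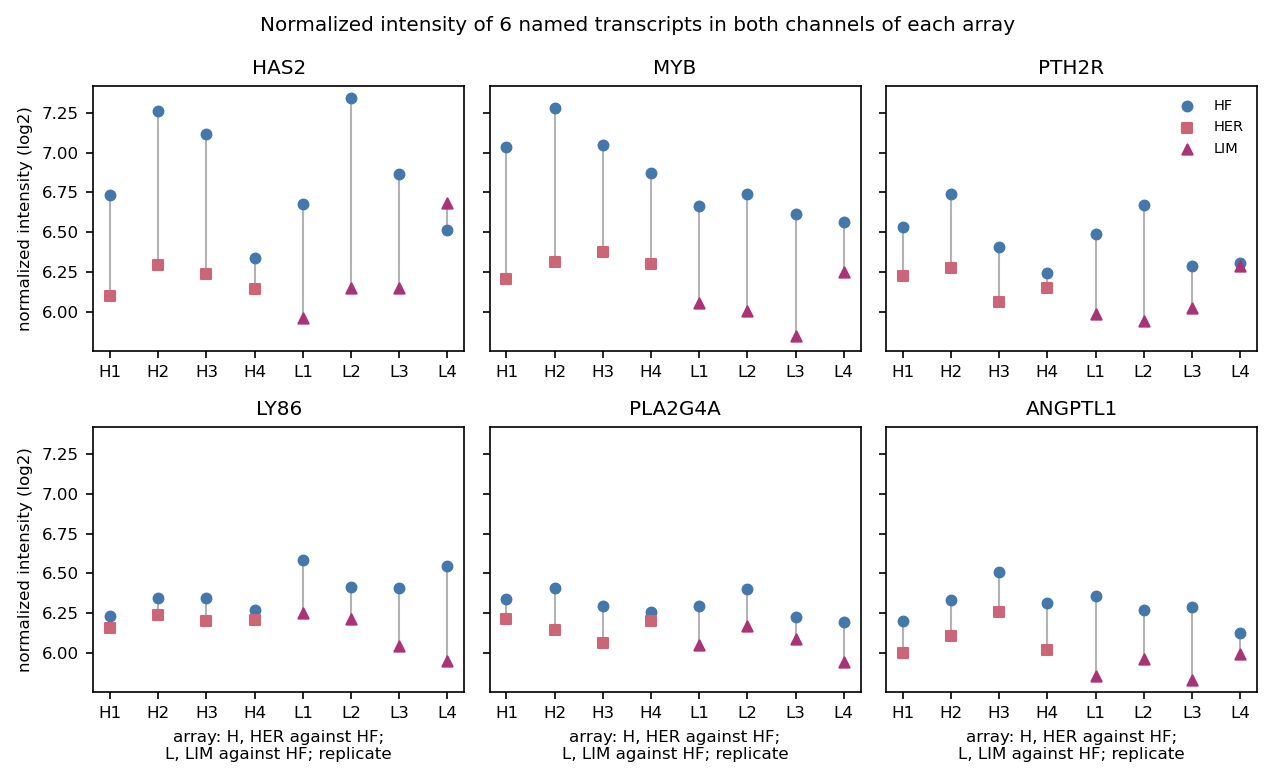
Normalized log2 intensity of *has2*, *myb*, *pth2r*, *ly86*, *pla2g4a* and *angptl1* in the HF and the beef channel of each array; a grey line joins both channels of an array, H marks HER and L marks LIM arrays, and the vertical axis does not start at 0. HF lies above the beef channel everywhere except for *has2* in LIM replicate 4, and the mean gaps of *has2* and *myb* exceed those of the other 4.

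Probes without a symbol held the extremes. The lowest mean ratio of the set belonged to A_73_100748, a TIGR consensus (TC342790), with -1.09, -1.34, -1.36 and -0.57 in HER replicates 1 to 4 and -0.86, -1.46, -1.18 and 0.15 in LIM replicates 1 to 4. By the mean ratio HF was 2.13-fold higher than HER, where local backgrounds as measured gave a log2 ratio of -0.40. Without background correction the HER ratio was -1.49, and by the scanner's ratios -4.13. In LIM the mean was -0.84 ± 0.71 (SD, n = 4), and replicate 4 was the only array above 0, as with *has2*. In the set, LIM replicate 4 had the highest of the 4 LIM ratios for 20 members, and HER replicate 4 the highest of the HER ratios for 20.

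The consensus TC336624 (probe A_73_113276) was the only transcript flagged on 8 of 8 HF and 0 of 8 beef arrays. Its HF levels were 6.58, 6.61, 6.58 and 6.34 on the HER arrays and 6.65, 6.72, 6.40 and 6.34 on the LIM arrays. HER cells stood at 6.03, 6.01, 6.22 and 6.08, and LIM cells at 5.96, 5.89, 5.92 and 5.97. No beef level reached any HF level, and by the mean ratio HF was 1.36-fold higher than HER and 1.51-fold higher than LIM. With local backgrounds as measured the HER ratio was -0.19.

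The difference between the LIM and the HER ratio was tested with limma over all 17631 tested probes, adjusted by Benjamini-Hochberg. The rule did not use this difference directly but restricts it. Its cap of 3 flagged beef channels left out every probe flagged on all 4 arrays of a beef breed. Among these were 115 probes detected in HF, on 0 of 4 HER arrays and on 4 of 4 LIM arrays. No member passed an adjusted p of 0.05, where 1 probe of all (0.00567%) did. At the unadjusted p of 0.05 with a fold of at least 1.3, 1 of 34 members passed, against 9.06% of all tested probes. Because of the restriction, nothing is read from these counts. The difference ran from -0.45 to 0.25 over the members with a median of -0.01, and was below 0 for 18 of 34. The 95% confidence intervals reached from -0.86 at the lowest to 1.06 at the highest. For *has2* the interval was -0.63 to 0.74 and for *myb* -0.15 to 0.47.

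The member that passed was A_73_106132, a probe with no further identifier. Its log2 ratio was -0.34, -0.29, -0.27 and -0.27 in HER replicates 1 to 4 and -0.54, -1.10, -0.74 and -0.55 in LIM replicates 1 to 4, without overlap. The difference was -0.45 (95% confidence interval -0.75 to -0.14, adjusted p = 0.191). Without LIM replicate 2 no member passed. For *ly86* the difference was -0.28 (interval -0.50 to -0.05, adjusted p = 0.25), under the fold threshold. In both, the breed cannot be told apart from the dye and the slide.

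**Figure D4:**
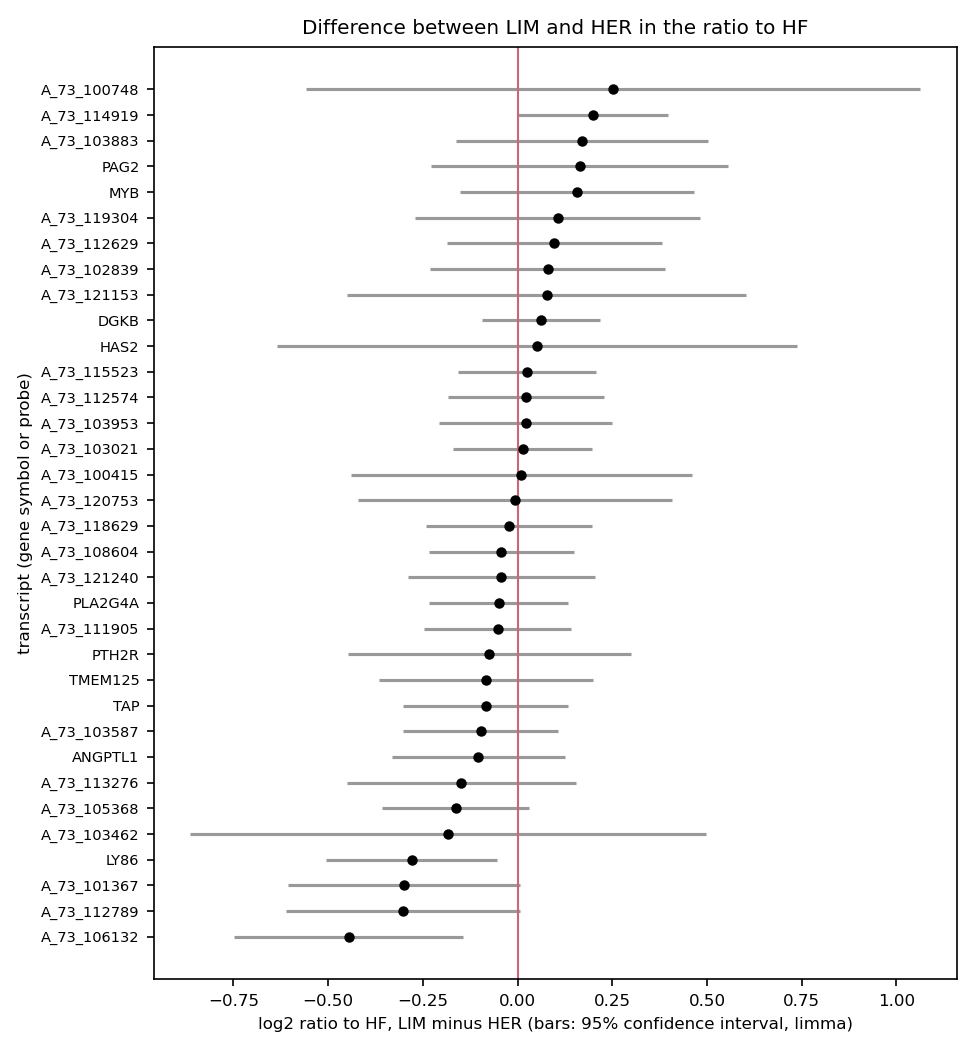
Difference between the log2 ratio of LIM over HF and that of HER over HF for each of the 34 transcripts, with 95% confidence intervals from limma; the red line marks 0. Most intervals cross 0, those of A_73_106132 and *ly86* lie below it, that of A_73_114919 just above it, and the intervals of A_73_100748, A_73_103462 and *has2* are the widest.

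The relatives of the named members, families chosen after the members were known, did not share a pattern. The calls are by limma at an unadjusted p of 0.05 and a fold of at least 1.3, which 30% of all tested probes passed in LIM (16.2% higher, 13.8% lower) and 23% in HER (12.7% higher, 10.3% lower). Of the further genes of hyaluronan metabolism, 5 were matched to a probe by RefSeq accession, and others may be measured by probes not matched. Among these 5, the synthase gene *has3* was lower in LIM (-1.69 ± 1.47, SD, n = 4, adjusted p = 0.0264), and in HER its value was -0.94 ± 0.40 without passing. The gene of the hyaluronan-degrading enzyme *hyal1* was higher in both breeds, by 1.51 ± 0.19 in LIM and 1.23 ± 0.29 in HER on the log2 scale (adjusted p = 0.000469 and 0.00285). The other 3 did not pass in either breed.

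Around *pla2g4a*, 13 genes of arachidonic acid release and prostanoid synthesis were matched by RefSeq accession. Of these, 2 were higher and 4 lower in LIM, and 2 higher and 1 lower in HER. Prostacyclin synthase *ptgis* was higher in both (1.00 ± 0.52 in LIM and 1.27 ± 0.74 in HER, adjusted p = 0.0279 and 0.0192). The prostaglandin E receptor gene *ptger4* was lower in both (-0.78 ± 0.58 and -0.85 ± 0.57, adjusted p = 0.0452 and 0.0461). Next to *angptl1*, the family held *angptl4*, a regulator of lipoprotein lipase, which was higher in LIM (2.57 ± 0.38) and in HER (1.71 ± 0.19), with adjusted p = 0.000433 and 0.0023. In the same family *angptl2* was lower in both (-0.65 ± 0.23 and -0.46 ± 0.57), with adjusted p = 0.0332 in LIM and 0.123 in HER. Close relatives of members thus stood on both sides of 0.

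Of the 5 genes around *ly86*, its receptor partner *cd180* was flagged in 0 channels, *ly96* was lower in LIM (-0.81 ± 0.97, adjusted p = 0.0857) and *lbp* higher in HER (0.47 ± 0.21, adjusted p = 0.0892). Neither of these 2 passed after adjustment. Among 3 parathyroid hormone genes, the ligand *pthlh* was higher in LIM (0.69 ± 0.36, adjusted p = 0.0132). The only *myb* relative matched to a probe by RefSeq accession, *mybl2*, passed in neither breed. Of 3 diacylglycerol kinases matched in this way, *dgka* was lower in LIM (-0.50 ± 0.17, limma, adjusted p = 0.00327).

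Markers of the cell types a muscle culture can hold were read beside these values. Of the 10 members with a symbol, 0 were in any of the 14 lists, and the 24 without a symbol could not be matched to a list. A listed gene was counted only where the RefSeq accession of a probe gave its symbol. Genes measured by other probes are left out, such as *unc45b* and *ttn*, which the study lists. Satellite cell and myoblast markers were matched to a probe for 7 genes. By the same unadjusted calls, 5 were higher in LIM, 6 higher in HER and 0 lower, where 16.2% and 12.7% of all tested probes were higher. Of 10 markers of differentiating muscle cells, 9 were higher in both breeds, with median log2 ratios of 2.69 in LIM and 2.21 in HER. The HF channels detected 7 of 7 satellite cell markers on at least 7 arrays, and also 10 of 11 fibroblast and 5 of 6 endothelial markers. Of all 21475 probes, 15458 were detected in this way, so these counts do not identify the cells. Fibroblast markers were higher for 7 of 11 in LIM and 5 of 11 in HER, and lower for 2 in each.

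Several lists had more genes lower than higher in the beef breeds. These calls too are unadjusted. Over all tested probes 13.8% were lower in LIM and 10.3% in HER, and with so few genes per list nothing is read from the counts. Of 15 chemokines and cytokines, 3 were lower in both breeds (*ccl2*, *cxcl5*, *il6*) and 0 higher, but *il6* in LIM did not pass after adjustment (limma, adjusted p = 0.064). Of 6 dividing cell genes, 2 were lower in LIM and 3 in HER, and of 5 epithelial and mesothelial genes 2 were lower in both. The 3 dividing cell genes in HER (*bub1*, *aurka*, *mcm5*) did not pass after adjustment (limma, adjusted p = 0.0572, 0.0645 and 0.063). In LIM *aurka* and *mcm5* did (limma, adjusted p = 0.0454 and 0.0118). Of 7 leukocyte markers, 1 was lower in LIM and 0 in HER, with a summed level of 2916 to 3665 in HF and 2620 to 3427 in HER on the HER arrays, and of 2972 to 3329 in HF and 1898 to 3148 in LIM on the LIM arrays. Of 6 Schwann cell genes, 1 was higher and 2 lower in LIM, and 1 was lower in HER. Of 8 interferon and antigen presentation genes, 2 were higher and 2 lower in LIM, and 1 was higher and 3 lower in HER. In the lists of adipocyte, smooth muscle, endothelial, tendon and bone, and HOX genes, 0 to 3 genes passed in each direction in each breed. The leukocyte integrin gene *itgam* was at background in all channels. The part of these cell types in the members' ratios was not tested.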

How the data were processed

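RNA of cultured muscle cells was hybridised to 8 dual-channel Agilent arrays, with HF in a channel of each, HER in the other of 4 arrays and LIM in that of the remaining 4. The authors scanned them with Feature Extraction 10.7.3.1, and the deposited files give median spot intensity, local background and detection flags per spot, unnormalised, for probes designed on HGSC Btau_3.1. The deposited log10 ratio of red over green is the scanner software's own and served as an alternative. The deposited flags (other values, 0 or 1) chose the members, and the members and gene lists were chosen with earlier results of these data known.

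Local backgrounds marked as outlying (HER replicate 3 held 38 red ones above 500, up to 775167) were replaced by the array median. Intensities were corrected with normexp (offset 50), normalised by loess within arrays in limma 3.58.1 (R 4.3.3), and averaged over spots after leaving out control and outlier spots. Ratios are log2 beef over HF, and channel levels follow Aquantile scaling. Probes flagged in 4 or more of the 16 channels (17631) were tested with lmFit and eBayes on all 8 arrays, adjusted by Benjamini-Hochberg, at p of at most 0.05 and fold of at least 1.3, the thresholds of the study's methods. The script was tested on simulated data.

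Named genes are all members with a symbol, and 3 probes without a symbol are given for the lowest mean ratio, the strictest detection and the smallest p. Symbols came from RefSeq accessions in a table on ARS-UCD2.0 (7793 of 17482 accessions matched). The number of arrays limits the precision.

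Same-numbered HF channels on both slides deviated together (correlations of 0.74 to 0.89 over probes, against -0.53 to 0.12 for different numbers), while the ratios did not pair in this way (-0.28 to 0.60, against -0.53 to 0.47, with the own number the best match for 1 of 4). The labels do not say that HF cultures were shared between slides, but the 8 HF channels may come from 4 cultures. Each beef sample is labelled as a biological replicate. The replicate number as a block was an alternative.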

Additional observations from a re-analysis of the deposited data

Results flagged for a closer look

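For *pla2g4a*, the log2 ratio of LIM replicate 3 was -0.14, set apart from the other 3 LIM replicates, which lay between -0.25 and -0.23. The gap to the nearest replicate was 0.835 of the range, above Dixon's 95% critical value for a group of 4. Of 28 groups examined, chance alone sets a sample apart in about 1 in 20. The ratio stayed below 0 on all 8 arrays.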

How the results depend on the processing

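All 34 members were lower in both breeds under each of the 6 alternatives of background, normalization and scaling, and 20 to 26 were below 0 on 8 of 8 arrays. With 1 array left out all 34 stayed lower except A_73_103883 in LIM, at 0.02 without replicate 3 and 0.09 without replicate 4. In both checks the members were those chosen on all 8 arrays by this same contrast, so nothing is read from their direction. The members themselves changed more: 18 probes with the positive and significant flag, 1 with HF on 8 of 8 and beef on 0, 8 with beef on at most 1 (chosen after seeing the data), 40 to 49 when 1 HER array was left out and 170 to 185 when 1 LIM array was left out. The median member ratio in LIM was -0.53 with uncorrected intensities, -2.03 by the ratios as the scanner computed them and -0.97 with median centring, which moved the median of all tested probes to 0.32 in LIM. In HER it was -0.11 with local backgrounds as measured, -0.39 with uncorrected intensities and -1.61 by the scanner ratios. Aquantile leaves the ratios as they are by construction.

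For LIM against HF, 5289 probes passed the unadjusted and 4592 the adjusted p. These became 11585 and 11316 with median centring, 1282 and 1195 at a fold of 2, and 528 adjusted by the methods' t-test after Benjamini-Hochberg. For HER, 4049 and 2979 became 1742 and 0 with local backgrounds as measured, 6142 (unadjusted) with scanner log ratios, 693 and 601 at a fold of 2, 0 (adjusted) by the methods' t-test, and 1090 to 3829 (adjusted) with 1 array left out. For the LIM minus HER difference, 1597 unadjusted calls became 2482 with scanner log ratios, 10071 with median centring and 112 at a fold of 2. The 1 adjusted call became 0 with local backgrounds as measured, 41 with scanner log ratios, 8505 with median centring, 0 with scaling between arrays (chosen after seeing the data), 28 with no filter, 243 with array weights, 0 with the replicate block and 0 to 17 with 1 array left out. The replicate block left the counts of members passing at 1 (unadjusted) and 0 (adjusted).

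Of the members, the 1 unadjusted call became 2 with local backgrounds as measured, 4 without background correction, 6 with scanner log ratios, 27 with median centring, 0 with scaling between arrays, 0 at a fold of 2 and 0 to 2 with 1 array left out. The 0 adjusted calls became 1 with scanner log ratios and 26 with median centring. The difference of *has2*, 0.05, turned to -0.42 with local backgrounds as measured, -0.31 with median centring, -0.10 with array weights, and ran from -0.21 to 0.25 with 1 array left out (-0.048 without HER replicate 2, -0.020 without HER replicate 3, -0.21 without LIM replicate 4). That of *myb*, 0.16, turned to -0.20 with local backgrounds as measured and -0.35 with median centring. For all of these the cause was not tested. The low signal of the members over background limits the size of every ratio given.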
